A study of Mus musculus with 3 samples.

Results

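The genes described here are 8 named for what fat is known to secrete: the adipokines Adipoq, Lep, Retn and Cfd, the brown-fat factors Nrg4, Bmp8b and Ptgds, and Nnat, which is measured beside them. They were chosen by name, with earlier results of these data known, and were all among the 25154 genes counted in nuclei of mouse brown adipose tissue (BAT). Single-nucleus RNA sequencing gave 3 libraries, 1 each of untreated, sham-operated and denervated BAT, from adult wild-type (WT) mice labelled C57Bl6 (C57BL/6J in the study's methods), and the labels name no transgene or other allele in any group. The study's methods describe 8-week-old male mice. Its figure legends give 20 mice for the denervated library, and likewise 20 for BAT with no operation described. Nuclei were sorted from a floating layer of brown adipocytes and fragmented vessels, so that other cells of the tissue were partly lost before counting. For the denervated library this was at 3 days after unilateral denervation. The procedure given for the denervated library also lists tamoxifen, and whether the other groups received it is not given in the sources used here. The study describes both a sham operation on the other side of the denervated mice and separate sham-operated mice, and which of these gave the sham library is not stated beyond its label. With 1 library a group there is no test between treatments, library and treatment cannot be told apart, and all intervals are exact 95% intervals that cover counting error only.

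Adipokines are proteins that adipocytes release into the blood or to neighbouring cells. White adipocytes are the classic source of leptin, resistin and the complement protease adipsin, whereas brown adipocytes, which burn lipid for heat, are known for a separate set of released factors such as neuregulin 4, the bone morphogenetic protein BMP8b and products of prostaglandin synthases. Denervation removes the sympathetic drive that switches heat production on.

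The start regions of 5 of the genes are given as examples of different places of the transcripts. Nnat and Retn were highest in white adipocyte-like nuclei and Ptgds in brown adipocyte-like nuclei. Lep and Nrg4 were held by both, with Nrg4 somewhat lower in white than in brown nuclei in every library. Each sequence comes from RefSeq on GRCm38.p6 and runs 5′ to 3′ on the gene's strand, from 250 bases before the start site to 50 bases after it. The positions are chr2:157559828-157560127 on the plus strand for Nnat, chr8:3655520-3655819 on the plus strand for Retn, chr9:55283576-55283875 on the minus strand for Nrg4, chr2:25469700-25469999 on the minus strand for Ptgds and chr6:29059971-29060270 on the plus strand for Lep. Capitals mark matches on either strand to 6 motifs. These are the TATAA box, the CCAAT box, TTGCNNAA as in sites of C/EBP factors, the cAMP response core CGTCA, the GGGCGG box, and the DR1 direct repeat that PPARγ binds with RXR.
Nnat: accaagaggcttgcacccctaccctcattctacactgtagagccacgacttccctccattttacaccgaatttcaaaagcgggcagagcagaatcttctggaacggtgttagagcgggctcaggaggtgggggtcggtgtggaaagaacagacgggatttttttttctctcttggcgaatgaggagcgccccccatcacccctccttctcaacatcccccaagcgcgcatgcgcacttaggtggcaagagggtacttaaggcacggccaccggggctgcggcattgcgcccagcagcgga
Retn: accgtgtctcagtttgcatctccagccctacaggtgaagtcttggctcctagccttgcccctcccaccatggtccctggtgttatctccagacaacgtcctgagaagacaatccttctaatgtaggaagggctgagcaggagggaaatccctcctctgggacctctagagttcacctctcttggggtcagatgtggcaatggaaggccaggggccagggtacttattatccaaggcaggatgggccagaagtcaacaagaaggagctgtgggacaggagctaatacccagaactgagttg
Nrg4: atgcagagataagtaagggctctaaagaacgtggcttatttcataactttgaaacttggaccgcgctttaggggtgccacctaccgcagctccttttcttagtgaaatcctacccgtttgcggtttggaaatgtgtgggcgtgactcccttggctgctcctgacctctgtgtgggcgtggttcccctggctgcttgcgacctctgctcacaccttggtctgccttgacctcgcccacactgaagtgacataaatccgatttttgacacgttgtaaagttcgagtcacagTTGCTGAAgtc
Ptgds: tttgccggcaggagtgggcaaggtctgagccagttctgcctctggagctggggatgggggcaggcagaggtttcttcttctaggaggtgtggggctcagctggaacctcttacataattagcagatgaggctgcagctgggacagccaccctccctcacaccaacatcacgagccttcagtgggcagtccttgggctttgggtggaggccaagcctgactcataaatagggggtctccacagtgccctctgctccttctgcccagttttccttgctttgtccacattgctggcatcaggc
Lep: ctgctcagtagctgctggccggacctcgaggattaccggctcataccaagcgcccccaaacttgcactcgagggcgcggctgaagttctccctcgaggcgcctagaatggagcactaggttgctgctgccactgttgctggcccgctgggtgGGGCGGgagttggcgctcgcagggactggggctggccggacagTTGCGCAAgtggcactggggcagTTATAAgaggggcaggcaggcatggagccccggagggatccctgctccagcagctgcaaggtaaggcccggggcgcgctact

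The Lep region held a TTGCNNAA match beginning 55 bases before the start site, TATAA on both strands at overlapping bases, and GGGCGG. Of 32851 RefSeq promoters of the same length, 10.8% held TTGCNNAA, 24.9% TATAA, 35.7% GGGCGG, 37.4% CCAAT, 20.8% CGTCA and 0.0396% the direct repeat. The Nrg4 region held TTGCNNAA at 40 bases after the start site, and the windows of Nnat, Retn, Ptgds and Cfd held none of these letters. The Nrg4 window lies inside the gene as GENCODE gives it (55220222 to 55326844, minus strand), away from the outermost start at 55326844. Adipoq held CCAAT 3 times and Bmp8b held CCAAT and GGGCGG. The Lep, Nnat, Nrg4 and Bmp8b windows had 19, 17, 13 and 23 CpG pairs beside a median of 7 over all promoters, and those of Retn, Cfd, Ptgds and Adipoq had 2, 2, 2 and 0.

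In GENCODE vM21 on GRCm38 the genes are protein coding and lie apart: Adipoq on chromosome 16 (23146536 to 23158028, plus strand), Lep on chromosome 6 (29060220 to 29073877, plus), Retn on chromosome 8 (3655770 to 3660110, plus), Cfd on chromosome 10 (79890853 to 79892655, plus), Nrg4 on chromosome 9 (55220222 to 55326844, minus), Bmp8b on chromosome 4 (123105165 to 123132099, plus), and Ptgds (25466709 to 25470046, minus) and Nnat (157560078 to 157562522, plus) on chromosome 2. The whole of Nnat lies within Blcap, which is on the opposite strand, and Nrg4 and Bmp8b each overlap genes on the opposite strand. Whether the counting used strand is not given in the sources used here, so that reads of such pairs could be mixed. Oxct2b also lies within Bmp8b, on the same strand. Of the 50-base stretches of their transcripts, 6.18% for Nrg4, 10.3% for Bmp8b and 1.82% for Nnat matched transcripts of other genes on either strand, and 0% for the other 5. The most were shared with transcripts read from the opposite strand: Fbxo22 for Nrg4, Gm17244 for Bmp8b and Gm23134 for Nnat. Bmp8b also shared some with Bmp8a in the same sense.

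Nuclei were grouped within each library from marker genes, with the 8 genes kept out of the grouping. The untreated, sham and denervated libraries gave 4678, 3427 and 5098 brown adipocyte-like, 121, 1024 and 959 white adipocyte-like, and 4254, 4554 and 2017 endothelial-like nuclei. These are called brown, white and endothelial nuclei. The sham white class depended on the processing: at a clustering resolution of 1 only 113 sham nuclei kept the white name, while the untreated and denervated libraries kept 123 and 954. The untreated brown class did so too, with 3295 nuclei at that resolution and 1959 at a minimum of 500 detected genes. The sham and denervated brown classes held 3551 and 5097 nuclei at that resolution, and 3097 and 3920 at that minimum. Levels are in CPM, the UMIs (unique molecular identifiers, counted molecules) of a gene per 1000000 UMIs of the class, and are compared within a gene only. The label brown held for Ucp1, the uncoupling protein of brown fat, at 344, 407 and 309 CPM in brown and 60.5, 41.9 and 80.6 in white nuclei. A denervated cluster of 1348 brown nuclei led by heat shock genes departed from this, with Ucp1 at 93.9 (74.6 to 117), overlapping the white level (62.6 to 102). Slc7a10, an amino acid transporter whose level helped to name the white clusters and so does not check that name, was at 689, 595 and 719 CPM in white and 2.80, 32.8 and 12.7 in brown nuclei. White nuclei of the sham and denervated libraries were also led by stress and immune-response genes (Thbs1 and Irf1 in the larger sham cluster, Cxcl1, Ptx3 and Irf1 in the denervated one), and the summed level of 13 heat shock genes was 13046, 34178 and 18752 CPM in white beside 4694, 6953 and 5311 in brown nuclei. Median UMIs per nucleus were 1824, 1457 and 899 in brown, 1284, 978 and 809 in white, and 616, 487 and 345 in endothelial nuclei. Between 251 and 278 barcodes were shared by each pair of libraries, and of those kept in both at most 42 had the same class.

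**Figure D1:**
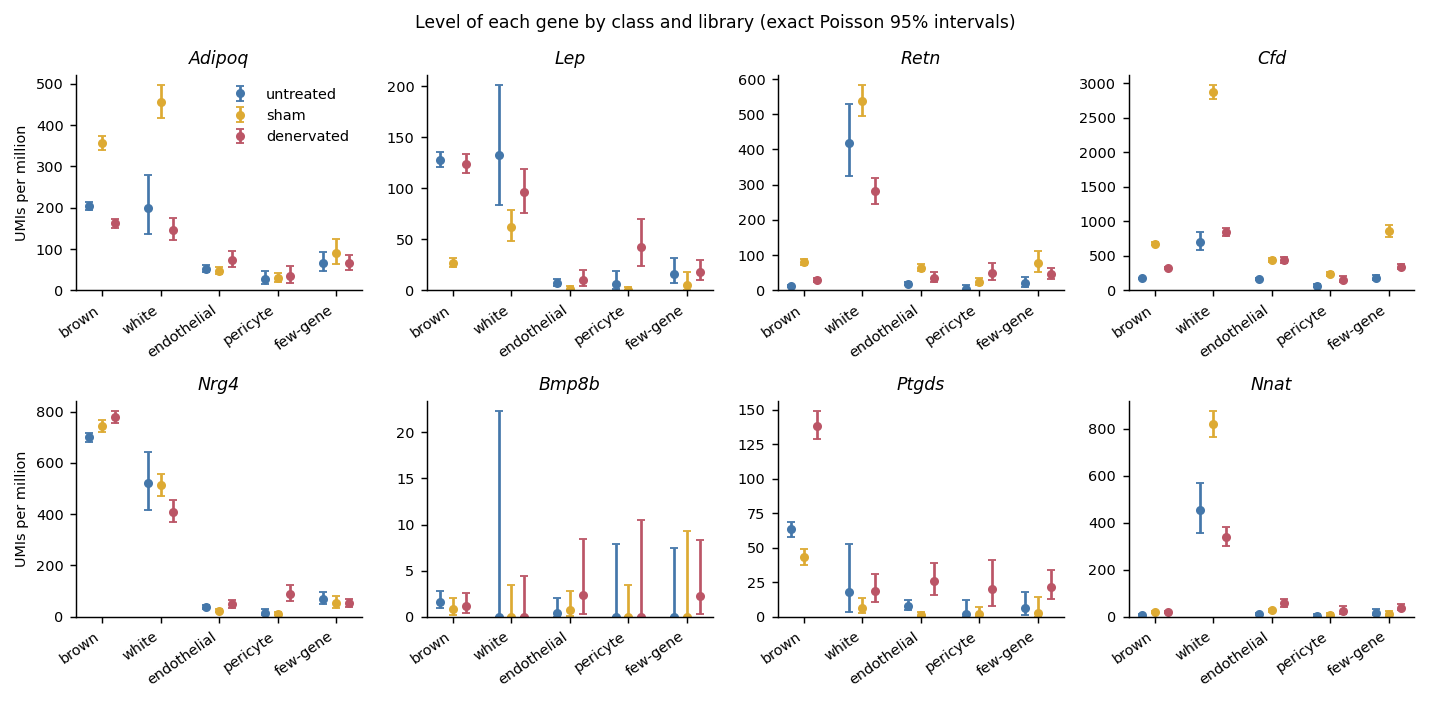
Level of each of the 8 genes (CPM, linear axes from 0) in brown, white, endothelial and pericyte nuclei and in barcodes with under 200 detected genes (few-gene), by library. Points are summed levels and bars are exact Poisson 95% intervals. Nrg4 and Ptgds stand highest in brown nuclei, Retn, Cfd and Nnat in white nuclei, and Bmp8b is near 0 throughout.

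Which nuclei of BAT held each transcript was asked first. Nrg4, Lep, Ptgds and Adipoq were at least 2 times as high (log2 ratio of at least 1, with at least 20 UMIs) in brown as in endothelial nuclei in all 3 libraries. That is 4 of the 7 genes with enough UMIs, since Bmp8b had too few. Of all genes compared, 28.3% were as high in the untreated, 25.4% in the sham and 26.3% in the denervated library. These shares are for each library on its own. Retn, Cfd and Nnat were higher by as much in white than in brown nuclei in every library. That is 3 of the 7, against 12.2%, 9.43% and 9.26% of all genes in each library on its own. Ptgds was lower in white than in brown nuclei by as much in every library, where 35.5%, 21.2% and 25.2% of all genes were. The 7 genes with enough UMIs had a median log2 ratio of brown over endothelial of 1.99, 2.91 and 1.12, beside 0.27, 0.10 and 0.18 over all genes compared. The median of white over brown was 0.06, 1.20 and -0.14, beside -0.13, -0.27 and -0.34 over all genes. Against endothelial nuclei, white nuclei were higher by as much for all 7 compared in the untreated library (18.0% of all genes), 6 of 6 in the sham (16.9%) and 4 of 7 in the denervated library (17.7%), where Adipoq and Cfd stood at 0.98 and 0.95 and Ptgds at -0.44. Of the 7 in the untreated library, Ptgds at 1.21 rested on 3 white UMIs and its interval, -1.18 to 2.94, includes 0, and it stood as low as 0.39 over the other ways of processing. None of the 8 was lower by as much in white than in endothelial nuclei, where 35.4%, 27.7% and 28.1% of all genes were, except that Ptgds in the denervated library reached -1.46 without doublet removal, and Nnat in the denervated library (-1.62, -2.14 to -1.10) was lower by as much in brown than in endothelial nuclei, beside 18.9%, 20.7% and 18.5% of all genes. This call depended on the processing: Nnat stood at -0.91 in the denervated library at a minimum of 500 genes, and at -1.76 in the untreated one. Adipoq in the denervated library fell below a ratio of 1 over endothelial nuclei without doublet removal and with free RNA subtracted, 0.88 at the lowest. In the untreated library 121 white nuclei gave only 165409 UMIs, so that many of the genes counted there rest on few UMIs.

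**Figure D2:**
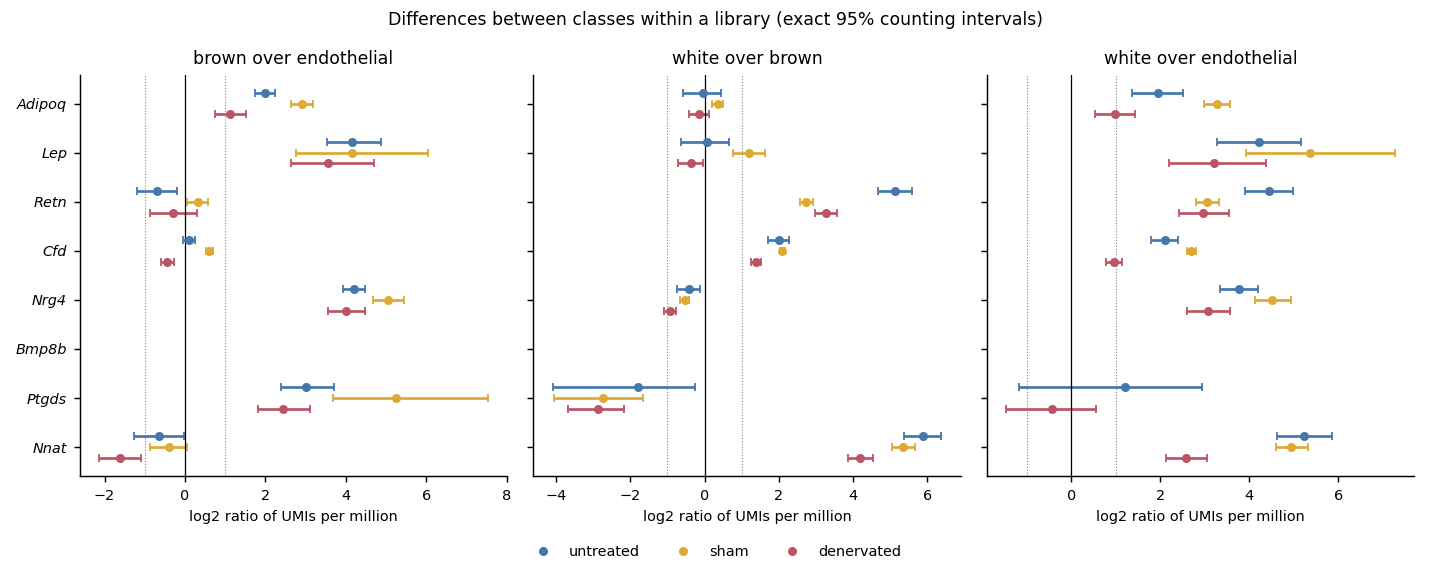
Log2 ratios of CPM between classes within each library (brown over endothelial, white over brown, white over endothelial), with exact 95% counting intervals and dotted lines at a log2 ratio of 1 in size. Pairs under 20 UMIs are not drawn. Retn and Nnat stand beyond 2.7 for white over brown in every library and near or below 0 for brown over endothelial, except that Retn in the sham library stands at 0.31.

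Adipoq encodes adiponectin, the most abundant hormone of adipocytes. Its level in brown nuclei was 205 CPM (196 to 215) in the untreated, 357 (340.3 to 373) in the sham and 162 (152 to 174) in the denervated library. In white nuclei it was 199.5 (137 to 280.2), 456 (417 to 498) and 147 (122 to 175). Endothelial nuclei, which should lack it, gave 51.8, 47.5 and 74.6. Adipoq was above the endothelial level in both adipocyte classes, least so in the denervated library, and the sham library was highest in both. The brown over endothelial log2 ratio was 1.99 (1.74 to 2.24), 2.91 (2.64 to 3.18) and 1.12 (0.76 to 1.51), and ran from 1.47 to 2.98, 2.53 to 3.74 and 0.88 to 1.53 over the other ways of processing tried (here and for the other genes, all but a mean of log values, whose differences are smaller by construction). White and brown nuclei did not differ beyond counting error in the untreated library (-0.04, -0.58 to 0.46) and the denervated one (-0.14, -0.43 to 0.13), while the sham white level was higher by 0.36 (0.21 to 0.50). Adipoq was detected in 27.5%, 35.5% and 13.3% of brown nuclei and in 3.20%, 2.59% and 2.93% of endothelial nuclei.

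Lep encodes leptin, which reports fat stores to the brain. Brown nuclei held it at 128 CPM (120.4 to 136) in the untreated, 27.1 (22.8 to 32.0) in the sham and 124 (115 to 134) in the denervated library. White nuclei held it at 133 (83.4 to 201), 62.4 (48.3 to 79.2) and 96.0 (76.2 to 119). The endothelial level was 7.15, 1.52 and 10.5. Lep was therefore above the endothelial level in all 3 libraries in both adipocyte classes, shared by brown and white nuclei. Denervated pericyte nuclei also held it, at 42.6 CPM (23.8 to 70.3) from 15 UMIs. The sham library was the lowest in both classes, though in white nuclei this order turned at a clustering resolution of 1, with sham over untreated at 0.50 and denervated over sham at -1.04. Its brown over endothelial log2 ratio was 4.16, 4.16 and 3.56, and ran from 2.55 to 4.77, 3.22 to 5.46 and 2.53 to 4.18 over the other ways of processing. Brown nuclei held 95.9%, 65.4% and 84.3% of all Lep UMIs of the nuclei kept, as they held 70.8%, 50.2% and 68.1% of all UMIs. The white over brown log2 ratio was 0.06 (-0.62 to 0.66) in the untreated, 1.20 (0.76 to 1.63) in the sham and -0.37 (-0.72 to -0.03) in the denervated library, so that the order of the classes differed between the last 2 libraries. That difference was not tested. In sham white nuclei the level rested in part on a cluster of 113 nuclei and was higher than brown by 0.54 without it.

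Retn encodes resistin, a cysteine-rich adipokine of mouse white fat. White nuclei held it at 417 CPM (325 to 528), 538 (495 to 584) and 281 (246 to 319) in the untreated, sham and denervated libraries. Brown nuclei held it at 11.9 (9.71 to 14.5), 80.1 (72.6 to 88.3) and 29.1 (24.7 to 34.2). Endothelial nuclei held it at 19.3 (14.5 to 25.2), 64.6 (55.3 to 75.1) and 36.1 (24.5 to 51.3). Barcodes under 200 detected genes, taken here and below as a measure of free RNA, held it at 20.1, 78.0 and 47.0. Such barcodes may also be shallow nuclei or debris, which was not tested. The order of the libraries was the same in brown nuclei, endothelial nuclei and free RNA, highest in sham and lowest in untreated. The cause was not tested. The brown over endothelial log2 ratio was -0.70 (-1.19 to -0.19), 0.31 (0.05 to 0.58) and -0.31 (-0.88 to 0.30), and over the other ways of processing it ran from -0.85 to -0.31, 0.16 to 1.82 and -0.79 to 0.65. Brown nuclei thus did not stand above this comparison class in the untreated library, and the order in the denervated one depended on the processing. In the sham library they stood above it throughout, past 1 only with free RNA subtracted (1.82). The white over brown log2 ratio was 5.13 (4.67 to 5.59), 2.75 (2.56 to 2.93) and 3.27 (2.97 to 3.57). White nuclei made up 1.24%, 9.48% and 10.2% of nuclei and held 30.1%, 48.7% and 52.7% of Retn UMIs. A Retn UMI was seen in 32.2%, 31.3% and 16.8% of white, 1.84%, 8.43% and 2.65% of brown and 1.18%, 3.14% and 1.54% of endothelial nuclei.

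Cfd encodes adipsin, the protease that cleaves factor B in the alternative complement pathway. White nuclei held it at 707 CPM (585 to 848), 2877 (2776 to 2980) and 846 (785 to 910.3). Brown nuclei held it at 176 (168 to 185), 674 (652 to 697) and 322 (307 to 338), and endothelial nuclei at 166 (151 to 182), 443 (418 to 469) and 438 (395 to 485). Cfd was highest in white nuclei in every library, while the order of brown and endothelial nuclei was not the same. The white over brown log2 ratio was 2.0 (1.72 to 2.28), 2.09 (2.02 to 2.16) and 1.39 (1.26 to 1.52). The brown over endothelial log2 ratio was 0.09 (-0.06 to 0.24), 0.61 (0.51 to 0.70) and -0.44 (-0.61 to -0.28), and over the other ways of processing it ran from -0.35 to 0.67, 0.19 to 1.27 and -0.82 to -0.12, passing 1 in the sham library with at most 10% mitochondrial UMIs. Free RNA held Cfd at 185, 857 and 344 CPM, and the endothelial level followed it in part. A Cfd UMI was seen in 47.1%, 79.9% and 41.6% of white nuclei, and in 8.86%, 18.9% and 13.6% of endothelial nuclei.

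Nrg4 encodes neuregulin 4, a ligand of the ErbB family of receptor kinases that brown fat releases. Its level in brown nuclei was 699 CPM (682 to 717), 743 (719 to 767) and 777 (754 to 802) in the untreated, sham and denervated libraries. In white nuclei it was 519.9 (416 to 642), 513 (471 to 557) and 409.9 (368 to 456). In endothelial nuclei it was 38.2, 22.4 and 48.9. Nrg4 was the steadiest of the 8 genes across libraries in brown nuclei, with log2 ratios between libraries from 0.07 to 0.15. The brown over endothelial log2 ratio was 4.19 (3.92 to 4.48), 5.05 (4.68 to 5.45) and 3.99 (3.55 to 4.46). These intervals are narrower than the spread over the other ways of processing, from 2.65 without doublet removal to 8.40 with free RNA subtracted in the untreated, 4.53 to 5.42 in the sham and 2.21 to 4.71 in the denervated library. White nuclei were below brown by less than 1 on the log2 scale, at -0.43 (-0.75 to -0.12), -0.53 (-0.67 to -0.41) and -0.92 (-1.09 to -0.76), though the last passed 1 without doublet removal (-1.02) and with nuclei classed by their markers alone (-1.12). An Nrg4 UMI was seen in 60.9%, 56.7% and 47.0% of brown nuclei, in 41.3%, 33.3% and 24.9% of white nuclei and in 2.28%, 1.25% and 1.83% of endothelial nuclei.

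Ptgds encodes the lipocalin-type prostaglandin D synthase, which also leaves the cell as a carrier protein. Brown nuclei held it at 63.4 CPM (58.1 to 68.9) in the untreated, 43.0 (37.5 to 49.1) in the sham and 139 (129 to 149) in the denervated library. White nuclei held it at 18.1 (3.74 to 53.0), 6.52 (2.62 to 13.4) and 18.96 (10.8 to 30.8), from 3, 7 and 16 UMIs. Endothelial nuclei held it at 7.86 (4.93 to 11.9), 1.14 (0.235 to 3.33) and 25.6 (16.1 to 38.8). Over the other ways of processing its brown over endothelial log2 ratio ran from 2.25 to 3.17, 4.75 to 6.11 and 1.78 to 3.23. Among brown, white and endothelial nuclei, Ptgds thus stood highest in brown nuclei, in which 95.3%, 94.8% and 91.0% of its UMIs lay. Brown nuclei held 70.8%, 50.2% and 68.1% of all UMIs, so that these shares depend in part on class size. Immune-like nuclei of the denervated library held Ptgds at 49.8 CPM from 7 UMIs, with an interval that overlaps those of white and endothelial nuclei there. White over brown had a log2 ratio of -1.80 (-4.09 to -0.25), -2.72 (-4.05 to -1.66) and -2.87 (-3.69 to -2.16). A Ptgds UMI was seen in 9.71%, 5.54% and 11.4% of brown nuclei and in 0.517%, 0.0659% and 1.09% of endothelial nuclei.

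Bmp8b, a bone morphogenetic protein known from thermogenic brown fat, was nearly undetected. Brown nuclei gave 14, 4 and 6 UMIs, which is 1.63 (0.893 to 2.74), 0.786 (0.214 to 2.01) and 1.16 (0.425 to 2.52) CPM. White nuclei gave 0 UMIs in each library, beside 18.1, 2.79 and 3.55 CPM for 3 UMIs of these classes and exact upper limits of 22.3, 3.43 and 4.37 CPM. No difference of Bmp8b between classes was detectable at this depth. Its relative Bmp8a gave 30, 16 and 51 UMIs in brown nuclei.

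Nnat encodes neuronatin, a small membrane protein of the endoplasmic reticulum and not itself a secreted factor. White nuclei held it at 453 CPM (357 to 568), 818 (765 to 874) and 339 (300.7 to 380.5). The sham level was carried by a cluster of 113 nuclei at 3690.5 CPM, and the other 911 sham white nuclei stood at 317, the lowest of the 3 libraries. Brown nuclei held it at 7.70 (5.96 to 9.80), 20.04 (16.3 to 24.3) and 18.5 (15.0 to 22.6), and endothelial nuclei at 12.1 (8.41 to 17.0), 26.6 (20.8 to 33.6) and 57.1 (42.2 to 75.5). The brown level was below the endothelial one in every library, at log2 ratios of -0.66 (-1.28 to -0.02), -0.41 (-0.86 to 0.05) and -1.62 (-2.14 to -1.10). In the untreated library this turned to 0.26 with free RNA subtracted, and single brown clusters stood above endothelial nuclei, at 25.6 CPM (16.2 to 38.4) in the untreated and 49.3 (37.1 to 64.2) in the sham library. The white over brown log2 ratio was 5.88 (5.38 to 6.38), 5.35 (5.05 to 5.66) and 4.19 (3.86 to 4.54). A Nnat UMI was seen in 19.01%, 17.3% and 13.7% of white and in 0.748%, 2.07% and 1.65% of brown nuclei. Blcap, within which Nnat lies, did not share the pattern: it was at 96.7, 109 and 117 CPM in white and 89.6, 60.9 and 98.3 in brown nuclei.

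**Figure D3:**
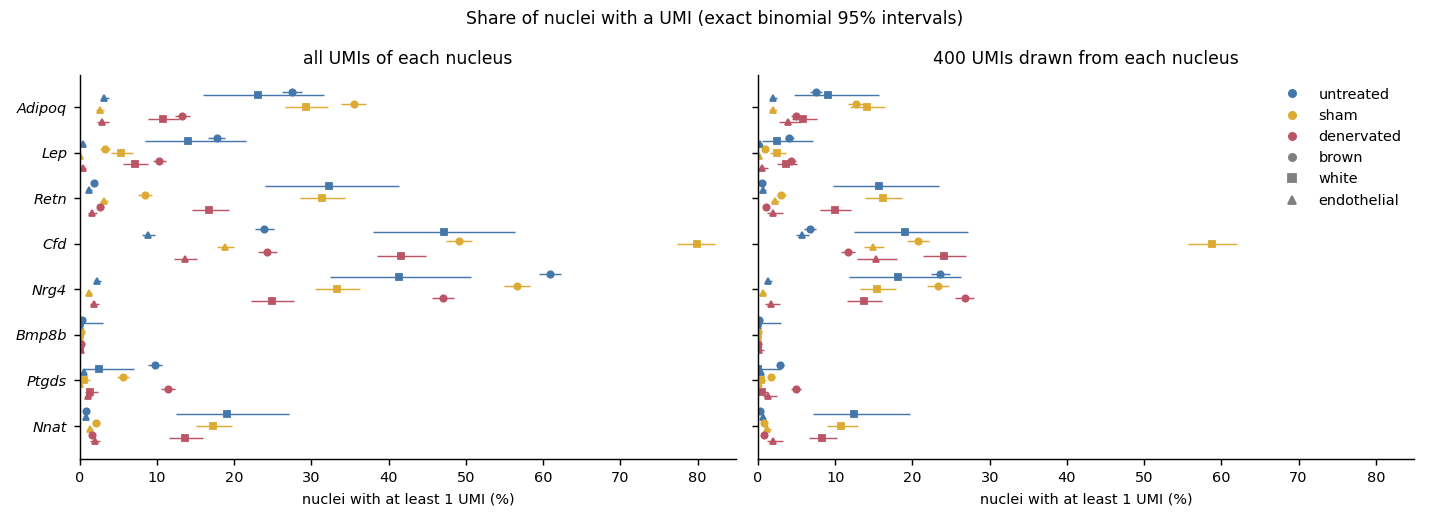
Share of nuclei (percent, linear axis) with at least 1 UMI of each gene in brown (circles), white (squares) and endothelial (triangles) nuclei of the 3 libraries, from all UMIs (left) and from 400 UMIs drawn from each nucleus (right). Bars are exact binomial 95% intervals. At equal depth Nrg4 is seen in 23.6%, 23.3% and 26.8% of brown nuclei.

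Shares of nuclei with a UMI depend on depth, which was lower in the denervated library. When 400 UMIs were drawn from each nucleus, and shallower nuclei were left out (76, 78 and 218 brown and 1165, 1560 and 1256 endothelial nuclei), the share with Nrg4 was 23.6%, 23.3% and 26.8% in brown and 18.2%, 15.4% and 13.7% in white nuclei. The share with Ptgds in brown nuclei was 2.87% (2.41% to 3.39%), 1.67% (1.27% to 2.17%) and 4.88% (4.29% to 5.52%), highest in the denervated library as for the level. The share with Lep in brown nuclei was 4.02% (3.47% to 4.63%), 0.896% (0.605% to 1.28%) and 4.26% (3.71% to 4.87%), lowest in the sham library as for the level. Of the 8 genes, 5 had a higher share in brown than in endothelial nuclei with intervals apart in all 3 libraries, beside 59.5% of 12085 genes compared, and 3 at equal depth (Lep, Nrg4 and Ptgds), beside 12.2%. Bmp8b had fewer than the 20 UMIs asked of the genes compared. The first count, at unequal depth, is near the share over all genes. Adipoq was lost there through the denervated library, with 4.86% (4.27% to 5.50%) of brown and 3.94% (2.68% to 5.58%) of endothelial nuclei. Cfd was lost through the untreated and denervated libraries, and in the latter its share was lower in brown (11.7%, 10.8% to 12.6%) than in endothelial nuclei (15.2%, 12.8% to 18.0%).

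The libraries were compared within brown nuclei to ask how the genes stood after denervation. Only Ptgds was higher in the denervated library than in both others by a log2 ratio of 1 or more, at 1.13 (0.97 to 1.29) against untreated and 1.69 (1.47 to 1.91) against sham. This is 1 of the 7 genes with enough UMIs in both comparisons, where 4.90% of all genes compared were higher than in both. The call was lost at a clustering resolution of 1, with Ptgds at 0.97 against untreated, where the untreated brown class had 3295 nuclei. None of the 8 was lower than in both others by as much, where 0.850% of all genes were. Against untreated alone, Retn and Nnat were also higher by as much, as 7.92% of all genes were, and none was lower, as 1.93% were. Cfd, at 0.87, passed 1 at a minimum of 500 genes (1.11). Against sham alone, Lep was higher too, at 2.19 (1.93 to 2.47), with 15.3% of all genes, and Adipoq at -1.13 (-1.25 to -1.02), Retn at -1.46 (-1.74 to -1.19) and Cfd at -1.07 (-1.15 to -0.98) were lower, with 9.09% of all genes. Of these, Cfd missed the limit, at -0.997, when at most 10% mitochondrial UMIs were allowed. The sham and untreated libraries, neither of which was denervated, differed by at least 1 in 4 of the 8 genes: Retn by 2.75 (2.43 to 3.08), Cfd by 1.93 (1.85 to 2.02) and Nnat by 1.38 (0.92 to 1.85) were higher in sham, with 8.93% of all genes, and Lep at -2.24 (-2.50 to -1.98) was lower, with 9.78% of all genes. The Nnat call rested on a sham cluster of 749 nuclei at 49.3 CPM. The other sham brown clusters, at 11.3 and 14.0 CPM, were each less than 2 times the untreated 7.70. Of the 8 genes, 5 were past 1 in either direction between denervated and sham and 3 between denervated and untreated. The 3 comparisons share libraries.

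In white nuclei, none of 6 genes compared was past 1 between denervated and untreated, where 13.6% of all genes were higher and 6.53% lower, although Cfd stood at 1.06 with nuclei classed by their markers alone. Against sham, Ptgds was higher in denervated white nuclei (1.54, 0.18 to 3.06, from 16 and 7 UMIs) and Adipoq, Cfd and Nnat were lower by more than 1, with 11.5% and 11.2% of all genes. The Nnat difference, -1.27 (-1.47 to -1.08), rested on the sham cluster of 113 nuclei and stood at 0.10 without it. Lep and Retn, at 0.62 and -0.94, also depended on the processing, from -1.04 to 1.29 for Lep and from -1.75 to -0.73 for Retn. Adipoq and Cfd were higher and Lep lower in sham than in untreated white nuclei, with 16.1% and 9.69% of all genes. Without that cluster Adipoq stood at 0.98 between sham and untreated. Nnat, at 0.85, ran from -0.52 without that cluster to 2.76 at resolution 1, where the white sham nuclei are 113 and Retn stood at 1.17 and Lep at 0.50. In endothelial nuclei, the comparison class, Cfd, Ptgds and Nnat were higher in denervated than in untreated (6.55% of all genes, 3.64% lower), and Nrg4, Ptgds and Nnat higher than in sham (10.1%, 8.95% lower). Whether endothelial cells make any of these transcripts themselves was not tested. There Retn, Cfd and Nnat were higher and Lep and Ptgds lower in sham than in untreated (6.02% and 3.82%). Of these endothelial differences, 5 lost the limit of 1 at a minimum of 500 genes, where Ptgds stood at 0.55 against untreated, Nrg4 at 0.73 and Nnat at 0.40 against sham, and Nnat at 0.76 and Lep at -0.93 between sham and untreated, and Retn stood at 0.70 there with free RNA subtracted. Others passed the limit under an alternative: in denervated against untreated, Lep and Retn both stood at 1.47 at a minimum of 500 genes, and Adipoq at 1.63 and Nrg4 at 4.30 with free RNA subtracted. The library differences in the adipocyte classes were thus partly seen in endothelial nuclei too.

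**Figure D4:**
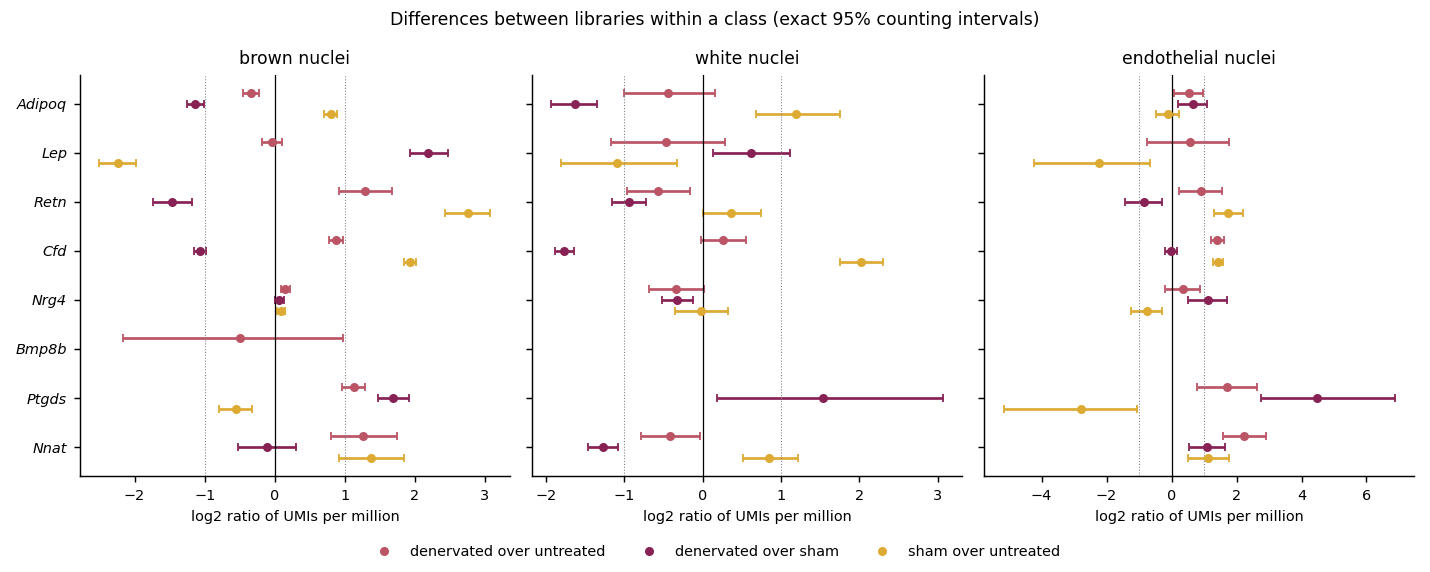
Log2 ratios of CPM between libraries within brown, white and endothelial nuclei, with exact 95% counting intervals and dotted lines at a log2 ratio of 1 in size. Pairs under 20 UMIs are not drawn. In brown nuclei Ptgds is past 1 in both comparisons with the denervated library, Lep is 2.24 lower in sham than in untreated, and Nrg4 is within 0.15 of 0.

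Ptgds also stood higher in the endothelial nuclei of the denervated library, at 25.6 CPM beside 7.86 and 1.14, and in its free RNA, at 21.8 beside 6.04 and 2.51. Its white level, at 18.96, 18.1 and 6.52 CPM, rests on 16, 3 and 7 UMIs, and no order between denervated and untreated can be read (log2 ratio 0.06, -1.74 to 2.48). The summed level of 14 endothelial markers in brown nuclei was 415, 428 and 347 CPM, beside 16806, 13536 and 13844 in endothelial nuclei.

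Retn, Cfd and Nnat also differed between libraries in endothelial nuclei, in part as they did in brown nuclei. Retn was higher in denervated than in untreated by 1.29 (0.92 to 1.67) in brown and by 0.90 (0.22 to 1.57) in endothelial nuclei, but stood at -0.57 (-0.96 to -0.16) in white nuclei, where its level was highest. Nnat likewise stood at 1.27 (0.80 to 1.74) in brown, 2.23 (1.57 to 2.91) in endothelial and -0.42 (-0.79 to -0.03) in white nuclei. Cfd was higher in sham than in untreated in all 3 classes, by 1.93 (1.85 to 2.02) in brown, 2.02 (1.76 to 2.30) in white and 1.42 (1.26 to 1.58) in endothelial nuclei. Between denervated and sham the classes parted. Cfd was at -1.07 (-1.15 to -0.98) in brown and -0.02 (-0.19 to 0.15) in endothelial nuclei, and Nnat at -0.11 (-0.53 to 0.30) in brown and 1.10 (0.54 to 1.65) in endothelial nuclei, while Retn was lower in both, at -1.46 (-1.74 to -1.19) and -0.84 (-1.44 to -0.28). The white nuclei were a larger share of the sham and denervated libraries than of the untreated one (9.48%, 10.2% and 1.24% of nuclei). At a resolution of 1 the sham share was 1.05%, beside 10.1% and 1.26%, and with nuclei classed by their markers alone the shares were 3.43%, 2.26% and 0.451%. The part of this in the brown and endothelial levels was not tested.

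Adipoq and Lep differed between libraries in opposite directions in the sham library. Adipoq was higher in sham than in untreated by 0.80 (0.70 to 0.89) in brown and by 1.19 (0.68 to 1.75) in white nuclei, beside -0.12 (-0.48 to 0.23) in endothelial nuclei. Lep was lower in sham, at -2.24 (-2.50 to -1.98) in brown and -1.09 (-1.81 to -0.33) in white nuclei, and likewise at -2.23 (-4.24 to -0.65) in endothelial nuclei, from 4 and 20 UMIs. Against the untreated library, the denervated library differed little in brown nuclei, at -0.34 (-0.46 to -0.22) for Adipoq and -0.04 (-0.19 to 0.10) for Lep. Mitochondrial genes took 6.71%, 12.9% and 2.95% of the UMIs of the untreated, sham and denervated libraries, and the part of tissue handling in these differences was not tested. The median log2 ratio over all genes compared in brown nuclei lay between -0.05 and 0.09 for the 3 pairs of libraries.

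Brown nuclei fell into several clusters, and the genes varied among them. In the untreated and denervated libraries, a brown cluster was led by heat shock genes (796 and 1348 nuclei, with 5 and 7 heat shock genes among its 10 leading genes, and a summed heat shock level of 15992 and 16372 CPM). A sham brown cluster led by Jun, Jund and Atf3 had a higher heat shock sum, 22074 CPM, with 2 heat shock genes among its 10 leading genes, and its Lep level, 23.3 CPM (15.2 to 34.2), stood beside 26.7 and 28.5 in the other sham brown clusters, with overlapping intervals. In the untreated and denervated clusters led by heat shock genes, Lep was lower than in the other brown nuclei of the same library, by -1.09 (-1.505 to -0.71) and -1.98 (-2.55 to -1.46), among 12.3% and 13% of all genes. Its level was 63.5 CPM beside 122 to 144 in the other untreated brown clusters, and 35.9 beside 93.0 to 168 in the denervated ones. Adipoq was lower there by less, at -0.61 (-0.89 to -0.35) and -0.83 (-1.17 to -0.50). Ucp1 stood at 239 CPM beside 341 to 367 in the untreated library, and at 93.9 beside 273 to 398 in the denervated one. Nrg4 did not share this, at 0.08 (-0.04 to 0.20) and 0.05 (-0.07 to 0.17). Nnat was higher there in the untreated library by 2.19 (1.39 to 2.95), from 23 UMIs, among 2.81% of all genes, and stood at 0.49 (-0.28 to 1.20) in the denervated one. Cfd stood at -0.35 and -0.09, Ptgds at -0.05 and -0.14, and Retn at 0.19 in both libraries, where 2.51% of all genes were higher in the denervated one. Median UMIs per nucleus were lower in those clusters, at 1094.5 and 614, and their part in these values was not tested.

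**Figure D5:**
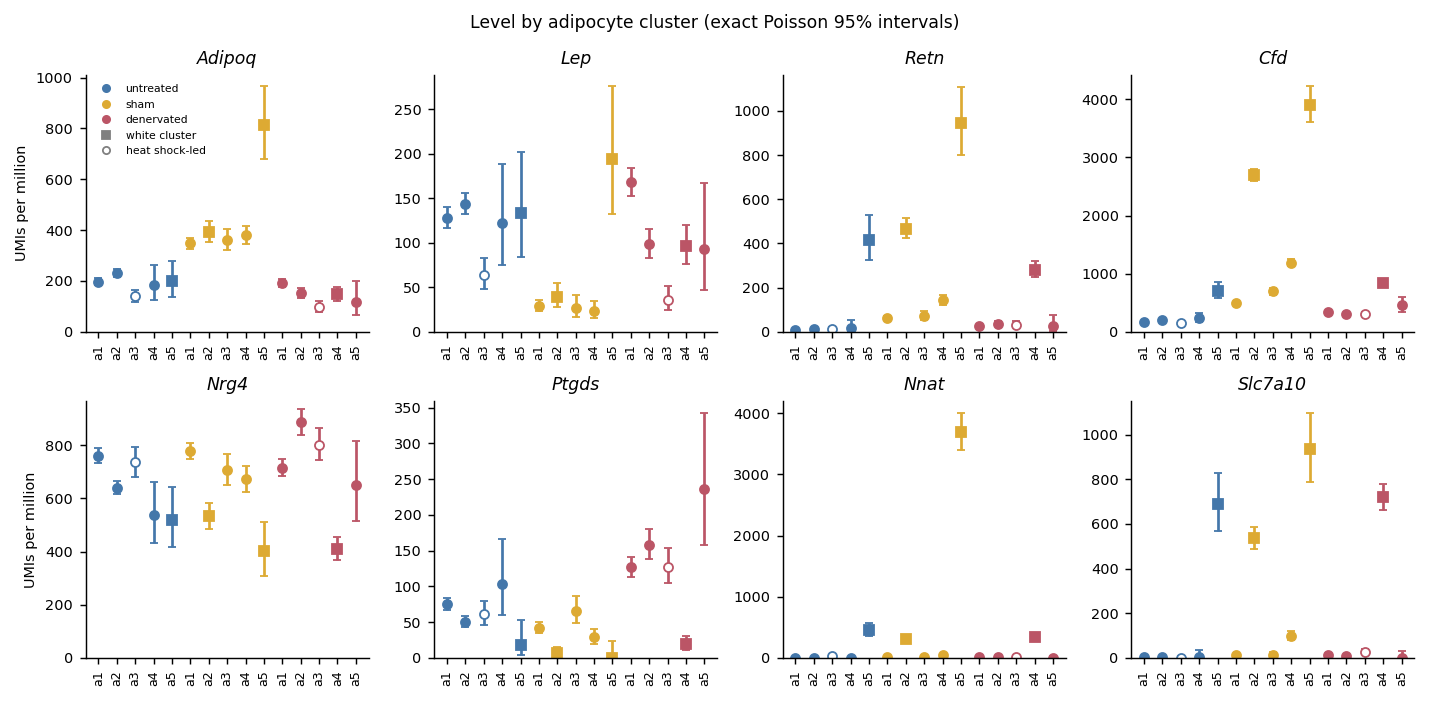
Level (CPM, linear axes from 0) of 7 of the genes and of the white marker Slc7a10 in each brown (circles) and white (squares) adipocyte cluster of the 3 libraries, with exact Poisson 95% intervals. Open circles are brown clusters led by heat shock genes. Nnat stands at 3690.5 in the smaller sham white cluster and at 453 or less in every other adipocyte cluster drawn.

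Ptgds in brown clusters ran from 127 to 237 CPM in the denervated library, from 50.9 to 104 in the untreated and from 28.7 to 66.1 in the sham library, so that every denervated brown cluster lay above every brown cluster of the other libraries. Intervals overlap between the untreated cluster of 295 nuclei (60.4 to 166) and the denervated ones. In the denervated and untreated libraries the smallest clusters gave the highest values, 237 from 28 UMIs and 104 from 17 UMIs, and mitochondrial genes were among the leading genes of both. Lep in sham brown clusters ran from 23.3 to 28.5, below every brown cluster of the other libraries, although the interval of the denervated heat shock-led cluster (24.4 to 51.0) overlaps them. In the sham library, the cluster led by Jun, Jund and Atf3 (749 nuclei) held more Cfd, Retn, Nnat and Slc7a10 than the other brown clusters there, at 1186, 142, 49.3 and 100.4 CPM beside 489.6 to 697, 60.5 to 72.4, 11.3 to 14.0 and 13.8 to 14.0. That cluster held 158 of the 408 Retn UMIs and 55 of the 102 Nnat UMIs of sham brown nuclei.

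White nuclei were 1 cluster in the untreated and denervated libraries and 2 in the sham library, of 911 and 113 nuclei. The smaller was led by Nnat, Cyp2e1, Chst1 and Slc7a10. Nnat was at 3690.5 CPM there and 317 in the larger, a log2 ratio of 3.54 (3.34 to 3.75). Lep was at 194 and 39.4, with a ratio of 2.30 (1.56 to 3.04), Adipoq at 815 and 394 (1.05, 0.75 to 1.34) and Retn at 946 and 467 (1.02, 0.74 to 1.29). These 4 genes were past a log2 ratio of 1, where 12.4% of all genes were, and Cfd stood at 0.53 (0.40 to 0.66) and Nrg4 at -0.41 (-0.81 to -0.03). Ptgds had 0 UMIs in the smaller cluster. With 1 library per group, a cluster found in 1 library may belong to that library. Without it, white over brown in sham was 3.98 for Nnat and 2.54 for Retn.

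The genes whose level over the 19 classes with at least 20 nuclei was most like each of the 8 were named from the Pearson correlation of log2(CPM + 10) among 12760 genes, as a description over classes that share libraries. Retn and Nnat were each among the most alike to the other or to the white marker Slc7a10: Retn was closest to Nnat (r = 0.91), and Nnat to Slc7a10 (0.92). Nrg4 was closest to Ces1d (0.97), Acacb (0.97) and Plin1 (0.97), genes of fat storage and breakdown. Adipoq was closest to Pnpla2 (0.94), the adipose triglyceride lipase, Lep to Smoc1 (0.95), Cfd to Car3 (0.87) and Ptgds to Cxadr (0.91). Bmp8b had too few UMIs for its closest gene, Pacsin1 (0.86), to be read.

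The related genes were 64 by list, of which 62 were in the tables. Of 17 receptors and binding partners, 6 of 14 compared in the untreated, 5 of 14 in the sham and 6 of 13 in the denervated library were higher in brown than in endothelial nuclei by 1 or more (28.3%, 25.4% and 26.3% of all genes), and 7, 5 and 4 were lower (18.9%, 20.7% and 18.5%). Erbb4, the receptor kinase that binds neuregulin 4, stood in brown nuclei as Nrg4 did, at 335, 300.4 and 477 CPM beside 28.9, 19.4 and 64.1 in endothelial nuclei, and was lower in white nuclei at 96.7, 141 and 198. Erbb3 was at 4.67, 5.11 and 5.21 CPM in brown nuclei. Adipor2, a receptor of adiponectin, was at 1928, 2483 and 1926 CPM in brown and 460.1, 691 and 446 in endothelial nuclei. Adipor1 was the other way round, at 37.8, 40.7 and 33.0 in brown and 147, 117 and 137 in endothelial nuclei. Cdh13, the cadherin that binds adiponectin, stood in endothelial nuclei at 894, 1031 and 1334 beside 86.4, 45.4 and 111 in brown nuclei. Lepr, the leptin receptor, was at most 9.32 CPM in the brown, white and endothelial nuclei of any library, from 13 UMIs or fewer.

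For the bone morphogenetic proteins, the type I receptor Bmpr1a was at 160.5, 131 and 182 CPM in brown and 8.57, 9.51 and 9.32 in endothelial nuclei. The type II receptor Bmpr2 was at 99.7, 86.2 and 112 in brown and 250.4, 209.9 and 309 in endothelial nuclei. Tlr4, an innate immune receptor reported to bind resistin, was higher in white than in brown nuclei, at 48.4, 35.4 and 66.3 beside 12.3, 15.7 and 15.4. Ptgdr and Ptgdr2, the receptors of prostaglandin D2, gave at most 1 UMI each in these classes.

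Of the complement genes around Cfd, C3, the central component, was at 29.5, 66.4 and 46.5 CPM in brown and 42.3, 123 and 87.7 in white nuclei. Cfb, the substrate of adipsin, gave at most 1 UMI. Ptges, the prostaglandin E synthase, was on the white side, opposite to Ptgds, at 193 (132 to 273), 48.4 (36.1 to 63.5) and 75.8 (58.4 to 96.8) CPM in white beside 13.3, 6.88 and 15.0 in brown nuclei. Ptgs1, the cyclooxygenase upstream of both, stood in endothelial nuclei at 25.01, 31.2 and 30.3 beside 1.17, 1.18 and 1.35 in brown nuclei. Hpgds, the other prostaglandin D synthase, gave 6, 2 and 11 UMIs in brown nuclei.

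Of 36 other factors that fat is known to secrete, 34 were in the tables. In brown over endothelial nuclei, 15 of 23 compared in the untreated, 12 of 21 in the sham and 13 of 22 in the denervated library were higher by 1 or more, beside 28.3%, 25.4% and 26.3% of all genes, and 6, 8 and 7 were lower, beside 18.9%, 20.7% and 18.5%. Pm20d1, a secreted enzyme that makes fatty acyl amino acids, stood with Ptgds on the brown side, at 42.0, 34.2 and 42.6 CPM in brown and 12.1, 3.72 and 4.74 in white nuclei. Vegfa, the vascular growth factor, was at 1305, 1917 and 1188 CPM in brown beside 87.9, 89.0 and 101 in endothelial nuclei. On the endothelial side, C1qtnf9, a relative of adiponectin, was at 429.8 (406 to 455), 276 (257 to 297) and 278 (244 to 316) beside 16.2, 16.1 and 7.52 in brown nuclei. Edn1, the vasoconstrictor endothelin, was at 15.4, 26.2 and 23.3 beside at most 3 UMIs in brown nuclei, and Adm, the vasodilator adrenomedullin, at 55.4, 35.4 and 50.1 beside 2.80, 1.77 and 1.93. On the white side, Igf1 was at 550.2 (443 to 675), 677 (628 to 728) and 286 (251 to 324) beside 57.5, 96.6 and 84.7 in brown nuclei, and 5, 5 and 7 of 21, 17 and 21 compared were higher in white than in brown by 1 or more (12.2%, 9.43% and 9.26% of all genes), with 11, 3 and 5 lower (35.5%, 21.2% and 25.2%).

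Between libraries in brown nuclei, 3 of these other factors were higher and 2 lower in denervated than in untreated, of 23 compared (7.92% and 1.93% of all genes), and 7 higher and 5 lower than in sham, of 20 (15.3% and 9.09%). Lcn2, the lipocalin-2 that inflamed fat releases, gave 22 UMIs in denervated brown nuclei beside 0 in untreated and 1 in sham, and 16 UMIs in denervated white and 8 in denervated endothelial nuclei. Per UMI of the class it was lowest in brown of these denervated classes. It was at 4.24 CPM in brown and 18.96 in white nuclei (white over brown 2.16, 1.13 to 3.15), and was lower in brown than in endothelial nuclei by 1 or more. Fgf21, a hormone of thermogenic fat, gave 40, 0 and 6 UMIs in untreated, sham and denervated brown nuclei. Gdf15, a stress-induced hormone, was at 18.5 CPM in denervated beside 7.70 in untreated and 1.38 in sham nuclei, and was higher in the heat shock-led brown clusters than in the others, by 2.29 in untreated and 2.63 in denervated. C1qtnf9 was lower in denervated brown nuclei than in both others, by -1.11 and -1.10, as 0.850% of all genes were. Its brown level, 16.2, 16.1 and 7.52 CPM in untreated, sham and denervated, was small beside the endothelial 430, 276 and 278. The summed endothelial markers in brown nuclei were also lowest in the denervated library. The part of endothelial RNA in this difference was not tested. Angptl8, an insulin-induced inhibitor of lipoprotein lipase, was low in the sham library as Lep was, at 188 in untreated, 33.2 in sham and 104 in denervated brown nuclei, with a sham over untreated log2 ratio of -2.50 (-2.74 to -2.27). Angptl4, an inhibitor of the same enzyme that fasting induces, was high there as Cfd was, at 49.4, 330.0 and 52.5, with a ratio of 2.74 (2.59 to 2.90). Both differences were also seen outside brown nuclei. Angptl8 stood at -1.38 in white and -3.16 in endothelial nuclei (4 and 38 UMIs in the latter), and Angptl4 at 2.01 and 1.68.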

How the data were processed

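Nuclei of mouse BAT were counted on the BD Rhapsody system in 3 libraries, 1 a group. The authors deposited raw UMI counts per gene and barcode, after correction of UMI errors, before their own removal of debris and free RNA and with no normalization. GRCm38 with GENCODE vM19 stands in the header lines of 2 tables (untreated and denervated). The sham table has no header, and the submitters' processing notes name GRCh38 and Seurat 4.0.6. Totals were 14971579, 14725864 and 9420030 UMIs in the untreated, sham and denervated libraries.

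The filter asked for 200 detected genes and no more than 50% mitochondrial UMIs, and passed 11792, 14027 and 10462 barcodes. Those with UMIs of 2 exclusive marker lists (at least 3 of the lesser, and 25% of the greater) were removed as doublets (2034, 3223 and 1039). Each library was clustered alone (2000 variable genes without the 8 genes and related lists, 30 components, 20 neighbours, Louvain resolution 0.5, scikit-learn 1.9.0 and python-igraph 0.11.9 in Python 3.11.15, with scipy 1.17.1), and adipocyte nuclei were clustered again. Names came from markers: white needed 3 markers at least 2 times the median of the adipocyte clusters, and the other adipocyte clusters kept the brown name unless markers of another type led them. The second clustering and this rule were set after the clusters were seen. Names were rebuilt here, and values that depart from the study may stem from that. Summed UMIs of a class gave CPM (per 1000000 UMIs), compared between classes or libraries as log2 ratios, with exact conditional binomial intervals for ratios, Poisson intervals for levels and Clopper-Pearson intervals for shares. No p-value was computed, since a group is 1 library. The ratio and its interval were run on simulated Poisson counts, which follow the model that the interval assumes. Those counts held no variation between nuclei, clusters or libraries, so that the run says nothing about these.

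The 8 genes and all lists were chosen with earlier results of these data known. The genes named are the 8, their receptors and pathway genes by level, and other secreted factors, each among the 4 highest or 4 lowest ratios past log2 1 in at least 1 comparison. Not all of those are named. Alternatives tried were other filters, no doublet removal, resolution 1, the 8 genes kept in the clustering, classes from markers without clusters, subtraction of free RNA, other denominators, a mean of log values, centred ratios and, chosen after seeing the data, leaving out the sham library or its smaller white cluster. Results on some related genes are not reported here.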

Additional observations from a re-analysis of the deposited data

Results flagged for a closer look

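Some ratios stood on opposite sides of 0, with counting intervals that exclude 0, in different libraries or classes. None of these differences was tested, since each group is 1 library. Lep was higher in white than in brown nuclei in the sham library (log2 ratio 1.20, 0.76 to 1.63) and lower in the denervated library (-0.37, -0.72 to -0.03). Retn was lower in brown than in endothelial nuclei in the untreated library (-0.70, -1.19 to -0.19) and higher in the sham library (0.31, 0.05 to 0.58). Cfd was higher in brown than in endothelial nuclei in the sham library (0.61, 0.51 to 0.70) and lower in the denervated library (-0.44, -0.61 to -0.28).

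Between the denervated and untreated libraries, Retn differed by 1.29 (0.92 to 1.67) in brown and -0.57 (-0.96 to -0.16) in white nuclei, and Nnat by 1.27 (0.80 to 1.74) in brown and -0.42 (-0.79 to -0.03) in white nuclei, where Nnat stood at 0.23 with nuclei classed by their markers alone. Between the denervated and sham libraries, Nrg4 differed by 0.066 (0.0016 to 0.13) in brown and -0.32 (-0.52 to -0.13) in white nuclei. The brown value does not keep its side of 0: it ran from -0.023 to 0.078 over the other ways of processing (a mean of log values left out), was -0.023 relative to the median ratio of all genes (0.089), and was below 0 with mitochondrial UMIs left out of the denominator. The white value stood at 0.03 at a clustering resolution of 1.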

How the results depend on the processing

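No paired analysis was possible because each group is 1 library. On the scale of mean log2(counts per 10000 + 1), whose differences are smaller by construction, the genes past 1 were 1 for brown over endothelial, 0 for white over brown, 0 for higher in denervated than in both others and 1 for sham against untreated. At resolution 1 the count higher in denervated than in both others was 0, with Ptgds at 0.97 against untreated. Without the sham library it was 3 (Retn, Ptgds and Nnat, with only the untreated library to compare). At 400 UMIs per nucleus, 3 genes had a higher share in brown than in endothelial nuclei. Adipoq left the count of brown over endothelial without doublet removal and with free RNA subtracted, which gave 3, and joined the genes that differ between sham and untreated at a minimum of 500 genes, which gave 5. Under the other settings these counts were those of the report. Counts within 1 library or comparison changed more: Cfd in brown nuclei stood at 1.11 for denervated over untreated at a minimum of 500 genes and at -0.997 for denervated over sham with at most 10% mitochondrial UMIs, Ptgds, white over endothelial in the untreated library, fell to 0.39 to 0.99 under 5 settings, and Lep, white over brown in the sham library, to 0.82 and 0.54. Of 1152 ratios of the 8 genes recomputed, 891 stayed within their interval, 259 moved and 2 of those past 1 changed sign: Nnat, denervated over sham in white nuclei, stood at 0.096 without the smaller sham white cluster, and Lep, sham over untreated in white nuclei, at 0.497 at resolution 1. The cause was not tested.

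Free RNA, as measured in barcodes under 200 detected genes, was subtracted at the largest share that markers of other cell types allowed. This took off 2.85% to 10.9% of the UMIs of the adipocyte classes and 52.3% to 64.8% of those of endothelial nuclei. These shares are upper limits, and the true amount of free RNA was not measured. The subtraction moved 24 of 100 ratios beyond their interval. A minimum of 500 genes moved 31 of 123, as did classes from markers without clusters. Depth limits Bmp8b, Lepr and the 121 untreated white nuclei. Intervals do not cover differences between mice, sorts or library preparations.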

Other observations

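Of the denervated adipocyte nuclei, 227 formed a cluster led by endothelial genes such as Adgrl4, Fli1 and Cyyr1 and were left unnamed. They held Nrg4 at 532 (428 to 653) and Ptgds at 111 (66.8 to 173) CPM, beside 777 and 139 in the brown nuclei of that library, and entered no comparison.

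Pericyte nuclei held Lep at 6.38, 0 and 42.6 CPM in the untreated, sham and denervated libraries, from 3, 0 and 15 UMIs, and Ptgds at 2.13, 1.86 and 19.9, from 1, 2 and 7 UMIs. Nrg4 was highest there in the denervated library, at 14.9, 11.2 and 88.0 CPM from 7, 12 and 31 UMIs. Retn stood at 4.25, 23.3 (15.1 to 34.4) and 48.3 (28.1 to 77.3), from 2, 25 and 17 UMIs. Nnat stood at 2.13, 8.38 (3.83 to 15.9) and 22.7 (9.81 to 44.8), from 1, 9 and 8 UMIs. For Retn and Nnat the sham and denervated intervals overlap, and no order of these libraries can be read. Adipoq differed little, at 27.6, 30.7 and 34.1, and Cfd was highest in sham, at 65.9, 231 and 156. The cause was not tested.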
